A study of Mus musculus with 6 samples.

Results

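Cells sense oxygen through the hypoxia-inducible factors (HIFs), and 9 genes of that system are described here in mouse kidney after lipopolysaccharide (LPS) and in saline-injected Control kidney. Hif1a and Epas1 encode HIF alpha subunits, Egln1, Egln2 and Egln3 encode the prolyl hydroxylases that mark those subunits, Vhl encodes the protein that recognises the mark, and Adm, Bnip3 and Hilpda are target genes. The genes were chosen by symbol from a list of pathway components and targets, and all 9 were among the 17680 gene symbols counted and among the 14219 genes that passed a filter on low counts and were tested.

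The LPS group was 3 wild-type C57BL/6 mice aged 6 to 8 weeks that received LPS, a component of the bacterial outer membrane used to model sepsis, by intraperitoneal injection. The Control group was 3 mice of the same strain and age range given phosphate-buffered saline by the same route. Whole kidney tissue was taken 24 h after injection, and no transgene or deletion is given for either group. The study asked which transcripts differ in kidneys injured by LPS.

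When oxygen is sufficient, the prolyl hydroxylases modify the HIF alpha subunits, the VHL protein binds the modified form, and a ubiquitin ligase built around VHL sends it to the proteasome. When oxygen is short, the alpha subunits escape this step, pair with ARNT in the nucleus and bind short core motifs near target genes of glycolysis, vessel tone, mitophagy and lipid storage. Much of this control acts on the protein, which RNA sequencing does not measure, although Hif1a transcription also responds to inflammatory signals. In kidney, HIF-1 alpha is found mainly in tubular cells and the Epas1 product in endothelial and interstitial cells, including the cells that make erythropoietin.

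The HIF core motif occurs in the promoters of several of these genes, and 1 stretch of 30 bases is shown for each of 7 genes so that genes that changed and genes that did not can be read side by side. The windows came from RefSeq on the mouse build GRCm38.p6, with 250 bases before and 50 bases after each annotated start, and were searched on both strands for the letters ACGTG and GCGTG, where CACGTG counts on each strand. Each stretch is written 5′ to 3′ on the gene's own strand, with the selected core in capitals. Other matches within a stretch, as in Bnip3, stay in lower case. ACGTG nearest above the start is shown, or, for Adm, the nearest CACGC, which is GCGTG on the other strand.
Hif1a, chr12:73907785-73907814, + strand: tggctgagagcaACGTGggctggggtgggg
Egln1, chr8:124949305-124949334, - strand: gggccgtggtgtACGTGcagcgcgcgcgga
Egln2, chr7:27166833-27166862, - strand: agcctcctgtcaACGTGcggttcgcgcacg
Egln3, chr12:54204086-54204115, - strand: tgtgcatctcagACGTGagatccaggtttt
Adm, chr7:110627591-110627620, + strand: ggcaaatctgacCACGCccaccgtccgccc
Bnip3, chr7:138909596-138909625, - strand: cgcacgcgccgcACGTGccacacgctcccc
Hilpda, chr6:29272571-29272600, + strand: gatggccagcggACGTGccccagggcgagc
The first capital lay 43 bases before the start in Hilpda, 48 in Egln2, 54 in Adm, 68 in Egln1, 70 in Hif1a, 107 in Bnip3 and 229 in Egln3. Hilpda and Egln2 also had another window each, and their distances are to the start of the window that held the stretch. In Hilpda the stretch lies downstream of the other annotated start. The 8 genes matched in the table, all but Epas1, had 10 windows, of which 9 held either core and 6 held ACGTG. Of all 32851 promoter windows, 43.8% held either core and 19.6% held ACGTG. Vhl had no match in its window, and a match is a description of the letters and not of a bound site.

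The 6 libraries held between 29097558 and 33454344 counts, and correlations of log2 CPM (counts relative to the scaled total of a library) were 0.985 to 0.99 among LPS libraries, 0.99 to 0.994 among Control libraries and 0.919 to 0.93 across the groups. Of the genes tested, 50.5% passed an adjusted p of 0.05 (edgeR's quasi-likelihood test with Benjamini-Hochberg adjustment), 25.7% being higher and 24.8% lower in LPS kidneys. For 60.2% of tested genes every LPS library lay above, or every one below, the Control libraries in CPM, and the median size of a log2 change over all tested genes was 0.38. LPS replicate 2 stood apart in a summed CPM of 36913 over 10 seminal vesicle marker genes, against 32.5 to 46.5 in the other 5 libraries, so results are given without that library where it mattered. The 7 of these markers that were tested were all called higher, and none was called without that library. All 9 genes had at least 45 counts in every library.

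In LPS kidneys Hilpda, Adm and Hif1a were higher, Egln1 and Vhl were lower, and Epas1, Egln2, Egln3 and Bnip3 did not pass the test. The 5 calls are 55.6% of the 9 genes, beside 50.5% of all tested genes, and the same 5 genes had groups that did not overlap, a share of 55.6% beside 60.2%. The share of these genes called was therefore near that of the whole kidney transcriptome. Their median log2 fold change was 0.01, beside 0.01 over all tested genes. Levels below are FPKM (counts per kilobase of gene length, scaled to the library total), and fold changes are edgeR estimates of LPS over Control from the scaled counts.

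**Figure D1:**
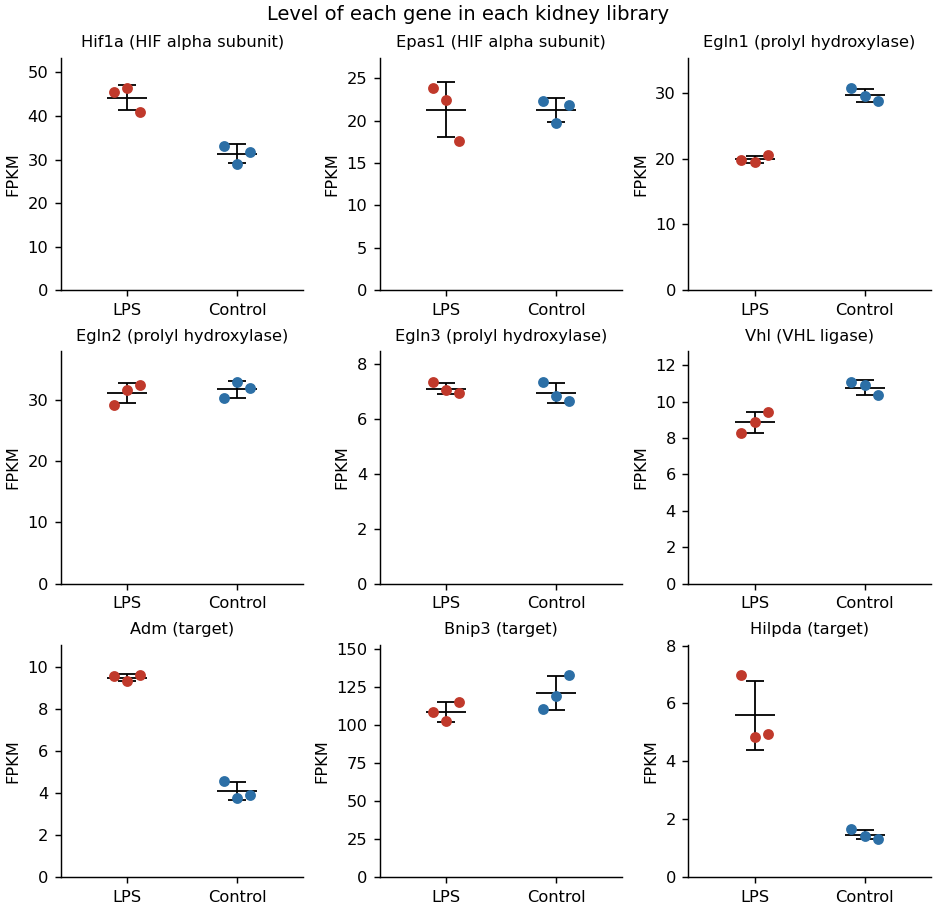
Level of each of the 9 genes in FPKM in every library, with LPS kidneys on the left and Control kidneys on the right of each panel. Points are libraries and bars are the mean ± SD (n = 3 each). Hif1a, Adm and Hilpda have all LPS points above all Control points, Egln1 and Vhl have them all below, and the other 4 genes overlap.

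Of the alpha subunits, Hif1a RNA rose while Epas1 RNA did not pass the test. Hif1a stood at 45.5, 46.3 and 40.9 FPKM in LPS replicates 1, 2 and 3, against 33.2, 29.0 and 31.7 FPKM in Control replicates 1, 2 and 3. Every LPS library was above every Control library, with the lowest LPS value in replicate 3. The means were 44.2 ± 2.93 FPKM in LPS kidneys and 31.3 ± 2.17 FPKM in Control kidneys (SD, n = 3 each). The fold change was 1.42, a log2 value of 0.51 ± 0.083 (SE) with a 95% interval of 0.32 to 0.70 (edgeR, adjusted p = 0.000900). Hif1a overlaps 2 other annotated genes, Gm15283 on the opposite strand and Gm49321 on the same strand, and since the strand setting of the counting is not given in the sources used here, reads of these genes cannot be told apart from its own. A larger change than that of Hif1a, in either direction, was seen in 38.8% of tested genes.

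Epas1 encodes HIF-2 alpha, the alpha subunit linked to erythropoietin production in renal interstitial cells. It stood at 23.8, 22.4 and 17.6 FPKM in the 3 LPS libraries, against 22.3, 19.7 and 21.9 FPKM in the 3 Control libraries. The groups overlapped, and both the highest and the lowest value were LPS libraries. The means were 21.3 ± 3.26 FPKM in LPS kidneys and 21.3 ± 1.39 FPKM in Control kidneys, and the coefficient of variation was 15.3% in LPS and 6.52% in Control kidneys. The log2 fold change was 0.01 with a 95% interval of -0.24 to 0.26 (edgeR, adjusted p = 0.944), so the interval for the fold ran between 0.848 and 1.20. Its sign was not fixed: it was -0.06 without LPS replicate 1, -0.03 without LPS replicate 2 or Control replicate 2 and 0.13 without LPS replicate 3, and slightly below 0 on log2(FPKM + 1).

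Markers of the cells that carry much of the kidney's Epas1 were mixed. Of 12 endothelial markers, none rose, 7 fell (58.3%, beside 50.5% called of all tested genes) and 5 did not pass the test. Their summed level was 481 to 595 CPM in LPS kidneys against 696 to 924 CPM in Control kidneys. Of 10 pericyte and fibroblast markers, 3 rose and 3 fell (60% called, beside the same 50.5%). The sums of this second list overlapped, at 420 to 644 CPM in LPS kidneys against 441 to 686 CPM in Control kidneys. The higher count of the second list was 1 without LPS replicate 1, Control replicate 2 or Control replicate 3, and with limma on FPKM values. The endothelial list had 4 lower genes with limma on log2(FPKM + 1). Library by library the order was mixed: LPS replicate 3 had the lowest LPS value of Epas1 and of both sums, but Epas1 was highest in LPS replicate 1 and the endothelial sum in LPS replicate 2. In Control kidneys Epas1 was lowest in replicate 2 and both sums in replicate 3. The part of these markers in the Epas1 values was not tested. In whole tissue, fewer cells of a type and less RNA per cell cannot be told apart, which holds for every result here.

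Set against each other in the same library, the alpha subunits shifted towards Hif1a. The ratio of Hif1a to Epas1 FPKM was 1.91, 2.06 and 2.32 in the LPS libraries, against 1.49, 1.47 and 1.45 in the Control libraries. All LPS ratios were above all Control ratios, and the LPS ratios were spread more widely, at 2.10 ± 0.207 in LPS and 1.47 ± 0.0191 in Control kidneys (SD, n = 3 each). The difference of the log2 ratio was 0.51, and an exact two-sided permutation test gave p = 0.1, the smallest that 3 against 3 libraries allow. The highest ratio was that of LPS replicate 3, where Hif1a and Epas1 both had their lowest LPS level.

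**Figure D2:**
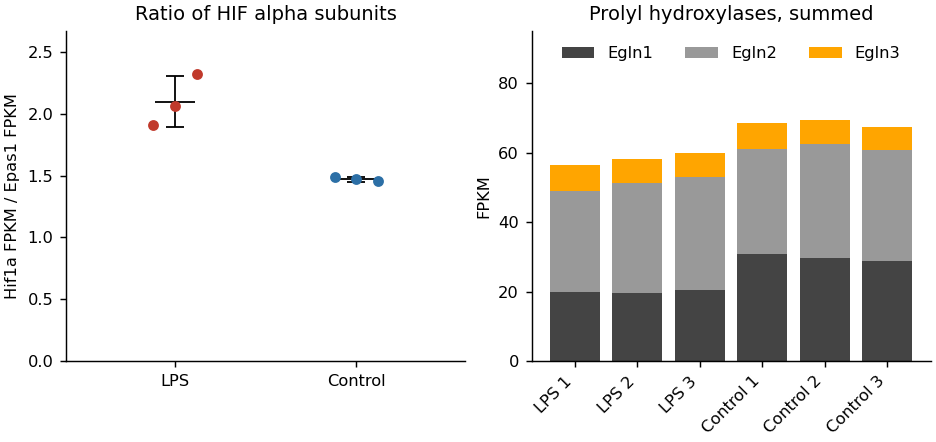
Left, ratio of Hif1a to Epas1 FPKM per library, with the mean ± SD of LPS and Control kidneys (n = 3 each). Right, FPKM of Egln1, Egln2 and Egln3 stacked for each library, LPS first. The LPS ratios sit between 1.91 and 2.32, above the Control ratios of 1.45 to 1.49, and the stacks are shorter in LPS kidneys mainly in the Egln1 segment.

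Of the prolyl hydroxylases, Egln1 fell and the other two did not pass the test. Egln1 encodes PHD2, the enzyme that does most of the hydroxylation of HIF alpha in normal oxygen. Its level was 19.8, 19.4 and 20.5 FPKM in the LPS libraries, against 30.7, 29.5 and 28.8 FPKM in the Control libraries. The LPS values lay close together and all were below every Control value. The means were 19.9 ± 0.561 FPKM in LPS kidneys and 29.7 ± 0.983 FPKM in Control kidneys (SD, n = 3 each). The fold change was 0.676, a log2 value of -0.56 ± 0.070 (SE) with a 95% interval of -0.72 to -0.41 (edgeR, adjusted p = 0.000174).

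Egln2 encodes PHD1, a mainly nuclear hydroxylase. It had 29.3, 31.7 and 32.6 FPKM in LPS kidneys, against 30.4, 33.0 and 32.0 FPKM in Control kidneys. The groups overlapped, with a log2 fold change of -0.02 and a 95% interval of -0.21 to 0.17 (edgeR, adjusted p = 0.869). Egln2 shares exon sequence with Cyp2t4 on the opposite strand, which had at most 1 count in any library.

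Egln3 encodes PHD3, a hydroxylase whose gene is itself a HIF target. It had 7.34, 7.07 and 6.94 FPKM in LPS kidneys, against 7.37, 6.84 and 6.67 FPKM in Control kidneys. The groups overlapped, with the highest value in a Control library. The log2 fold change was 0.04 with a 95% interval of -0.15 to 0.23 (edgeR, adjusted p = 0.696).

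The 3 hydroxylases together gave 56.4, 58.2 and 60.0 FPKM in LPS kidneys, against 68.4, 69.4 and 67.5 FPKM in Control kidneys. All LPS sums were below all Control sums, with means of 58.2 ± 1.82 FPKM in LPS kidneys and 68.4 ± 0.973 FPKM in Control kidneys, a difference of -10.2 FPKM (exact two-sided permutation p = 0.1, the smallest possible). Egln1 made up 34.2 ± 0.842% of the sum in LPS and 43.4 ± 1.32% in Control kidneys. The share of Egln2 was 53.6 ± 1.41% in LPS and 46.5 ± 1.84% in Control kidneys, and that of Egln3 was 12.2 ± 0.734% in LPS and 10.2 ± 0.517% in Control kidneys (SD, n = 3 each). Egln2 was therefore the most abundant hydroxylase RNA in each LPS library, while in Control kidneys its range overlapped that of Egln1.

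Vhl encodes the substrate-binding protein of the ligase. Its level was 8.30, 8.87 and 9.43 FPKM in LPS kidneys, against 11.1, 10.9 and 10.4 FPKM in Control kidneys. The groups did not overlap, although the gap between the highest LPS and the lowest Control value was smaller than the spread within LPS kidneys. The fold change was 0.828, a log2 value of -0.27 ± 0.086 (SE) with a 95% interval of -0.47 to -0.08 (edgeR, adjusted p = 0.0257). Leaving out 1 library ended this call in 4 of 6 cases: the adjusted p (edgeR) became 0.069 with LPS replicate 1 left out, 0.0791 with LPS replicate 2, 0.0581 with Control replicate 1 and 0.0852 with Control replicate 2. The log2 value was between -0.32 and -0.22 over the 6 fits that leave out 1 library.

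Markers of tubular cells, which make up most of the kidney, fell in the same libraries. All 12 proximal tubule markers fell, and their sum was 2981 to 3084 CPM in LPS kidneys against 15436 to 17414 CPM in Control kidneys. Of 10 markers of the loop of Henle, distal tubule and collecting duct, 7 fell and none rose, with sums of 5357 to 5986 CPM in LPS kidneys against 7551 to 7884 CPM in Control kidneys. The part of these cell types in the lower Egln1 and Vhl was not tested.

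**Figure D3:**
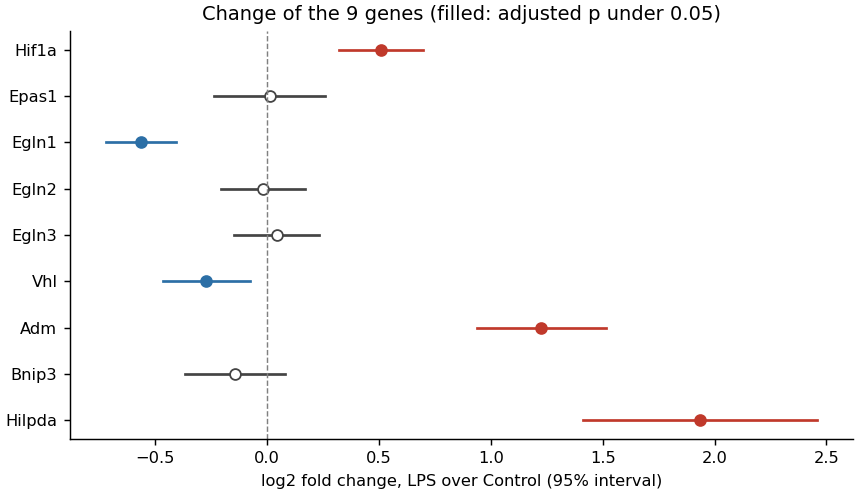
Log2 fold change of LPS over Control for each gene, with its 95% interval (edgeR). Filled points passed an adjusted p of 0.05, red for higher and blue for lower in LPS kidneys. Hilpda at 1.94 and Adm at 1.23 lie farthest right, Egln1 at -0.56 farthest left, and the intervals of Epas1, Egln2, Egln3 and Bnip3 cross 0.

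Of the target genes, Hilpda and Adm had the largest fold changes of the 9 genes, and Bnip3 did not pass the test. Hilpda encodes a lipid droplet protein that inhibits adipose triglyceride lipase. Its level was 6.98, 4.84 and 4.94 FPKM in LPS kidneys, against 1.65, 1.43 and 1.33 FPKM in Control kidneys. Every LPS library was above every Control library, and LPS replicate 1 was the highest of all. The counts behind these levels were 249, 179 and 171 in LPS and 53, 49 and 45 in Control kidneys, and the exact Poisson 95% interval of the lowest count was 32.8 to 60.2, which covers counting error only. The fold change was 3.83 with a 95% interval of 2.66 to 5.49, a log2 value of 1.94 ± 0.23 (SE, edgeR, adjusted p = 0.000142). Only 7.22% of tested genes had a larger change, although the coefficient of variation of Hilpda in LPS kidneys, 21.6%, was the highest of the 9 genes.

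Adm encodes adrenomedullin, a secreted vasodilator peptide. It stood at 9.56, 9.33 and 9.62 FPKM in LPS kidneys, against 4.59, 3.79 and 3.91 FPKM in Control kidneys. The LPS libraries were nearly level with each other and all lay above the Control libraries. The means were 9.50 ± 0.156 FPKM in LPS kidneys and 4.10 ± 0.429 FPKM in Control kidneys (SD, n = 3 each). The fold change was 2.34, a log2 value of 1.23 ± 0.13 (SE) with a 95% interval of 0.94 to 1.52 (edgeR, adjusted p = 6.34e-05), and 14.4% of tested genes had a larger change.

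Bnip3 encodes a mitochondrial outer membrane receptor for mitophagy and had the highest level of the 9 genes in every library. It stood at 108, 102 and 115 FPKM in LPS kidneys, against 111, 119 and 133 FPKM in Control kidneys. The groups overlapped, since LPS replicate 3 was above Control replicate 1. The log2 fold change was -0.14 with a 95% interval of -0.37 to 0.08 (edgeR, adjusted p = 0.256). An antisense gene, Gm45507, overlaps Bnip3, and its reads cannot be told apart here.

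Leukocyte markers also differed between the groups. All 8 tested of 11 neutrophil markers rose, with a sum of 72.7 to 104 CPM in LPS kidneys against 3.32 to 3.78 CPM in Control kidneys, where Mpo and Elane had no counts. Of 12 monocyte and macrophage markers, 5 rose and 4 fell, with sums of 222 to 258 CPM in LPS kidneys against 150 to 242 CPM in Control kidneys. The higher count of that list was 8 without Control replicate 1 and 3 without Control replicate 2. Of 10 T, NK and B cell markers, 5 were tested and 4 fell, with sums of 2.23 to 4.21 CPM in LPS kidneys against 6.25 to 20.0 CPM in Control kidneys. The highest of these sums was in Control replicate 1, and without it 2 of 5 were lower. Of 7 red cell and platelet markers, 6 were tested and 5 fell, with sums of 49.7 to 106 CPM in LPS kidneys against 201 to 261 CPM in Control kidneys. Podocyte markers fell in 2 of 6 cases, at 429 to 470 CPM in LPS kidneys against 512 to 543 CPM in Control kidneys. The part of these cells in the higher Hif1a, Adm and Hilpda was not tested. The neutrophil sum was 84.1, 104 and 72.7 CPM in LPS replicates 1, 2 and 3, and its order beside those of Hif1a, Adm and Hilpda was not tested.

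Ordered by FPKM, which is per length, the 9 genes in LPS kidneys ran Bnip3, Hif1a, Egln2, Epas1, Egln1, Adm, Vhl, Egln3 and Hilpda. Neighbours whose LPS ranges overlapped were Epas1 with Egln1, Adm with Vhl, and Egln3 with Hilpda. The order in Control kidneys was Bnip3, Egln2, Hif1a, Egln1, Epas1, Vhl, Egln3, Adm and Hilpda, where Egln2, Hif1a and Egln1 overlapped in turn. Hif1a was therefore clear of the hydroxylases in LPS kidneys and level with Egln1 and Egln2 in Control kidneys. Adm stood above Egln3 in LPS kidneys and below it in Control kidneys.

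The rest of the pathway was followed in 7 lists of 110 genes, of which 109 were tested. In LPS kidneys 37 rose and 22 fell, together 54.1% beside 50.5% of all tested genes, with a median log2 fold change of 0.12. The lists differed in how their called genes split by direction, from none lower of 14 lipid droplet genes to none higher of 9 adrenomedullin genes. Without LPS replicate 2, the other canonical targets, glucose metabolism and lipid droplet lists each had 1 fewer higher gene, as had the mitophagy list, and the partner and ligase lists each had 1 fewer lower gene.

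**Figure D4:**
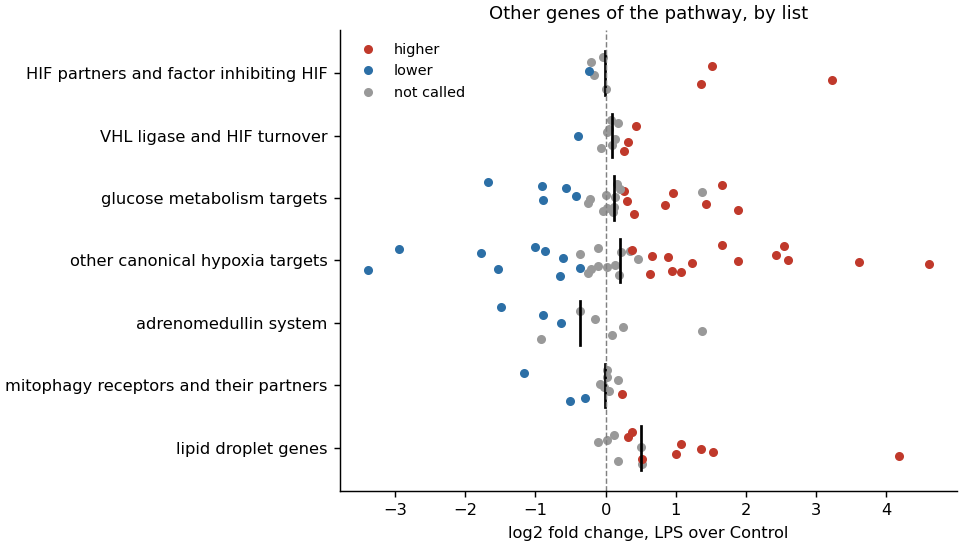
Log2 fold change of LPS over Control for the 109 tested genes of the 7 pathway lists, 1 point per gene in every list that holds it. Points are red for higher, blue for lower and grey for not passing an adjusted p of 0.05 (edgeR). Black bars are list medians, which run between -0.37 for the adrenomedullin system and 0.51 for lipid droplet genes. The glucose and canonical target lists hold red points to the right of 0 and blue points to the left.

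Among 8 genes of HIF partners and factor inhibiting HIF, 3 rose and 1 fell (50% called), with a median log2 fold change of -0.02. Arnt, the shared beta subunit, had 43.1 ± 2.39 CPM in LPS kidneys against 43.0 ± 3.21 CPM in Control kidneys, with a log2 fold change of 0.00 and a 95% interval of -0.18 to 0.19 (edgeR, adjusted p = 0.969). Its paralog Arnt2 rose, at 130 ± 20.0 CPM in LPS kidneys against 50.8 ± 2.15 CPM in Control kidneys. Hif3a, the alpha subunit with isoforms that restrain the other subunits, rose at low levels, with 75, 179 and 90 counts in LPS and 5, 12 and 17 counts in Control kidneys, highest in LPS replicate 2. Its log2 fold change was 3.23 ± 0.49 (SE) and Cited4, which encodes a CBP/p300-interacting protein, had one of 1.52 ± 0.17. Hif1an, the asparaginyl hydroxylase that blocks HIF transactivation, was at 58.1 ± 4.07 CPM in LPS kidneys against 65.3 ± 1.54 CPM in Control kidneys and did not pass the test (edgeR, adjusted p = 0.0903). Cited2, a HIF-induced competitor for CBP/p300, fell with a log2 value of -0.24 ± 0.086. That call ended without LPS replicate 2 (-0.18), LPS replicate 3 (-0.22), Control replicate 1 (-0.27), Control replicate 2 (-0.20) or Control replicate 3 (-0.26), with adjusted p between 0.061 and 0.166.

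The ligase and turnover list of 11 genes had 3 higher and 1 lower, 36.4% called, with a median of 0.09. Usp20, which encodes a deubiquitinase of the VHL pathway known from human cells, rose with a log2 fold change of 0.43 ± 0.070 (SE). The ligase subunits Rbx1 and Elob rose by 0.32 ± 0.086 and 0.26 ± 0.082 on the log2 scale, the opposite direction to Vhl. The call for Elob ended without LPS replicate 3 (0.23), Control replicate 1 (0.26) or Control replicate 3 (0.22). Siah2, a ubiquitin ligase that targets EGLN proteins, fell with a log2 value of -0.40 ± 0.14, and that call ended in every fit that left out 1 library except Control replicate 3, at -0.38 without LPS replicate 1, -0.43 without LPS replicate 2, -0.38 without LPS replicate 3, -0.43 without Control replicate 1 and -0.25 without Control replicate 2.

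Of 24 glucose metabolism targets, 8 rose, 5 fell and 11 did not pass, with a median log2 fold change of 0.13. The share called was 54.2%, beside 50.5% of all tested genes. The genes that rose most were Hk2, a hexokinase, at 1.88, Slc16a3, a lactate exporter, at 1.66, Pfkfb3, which makes the activator of phosphofructokinase, at 1.43, and Eno1, the glycolytic enolase, at 0.96. Hk2 was low in each group, at 9.14 CPM in LPS kidneys against 2.48 CPM in Control kidneys, whereas Eno1 was abundant, at 1341 ± 148 CPM in LPS kidneys against 689 ± 16.6 CPM in Control kidneys. Slc16a3 had a log2 value of 2.27 without Control replicate 1, its highest Control library. The genes that fell most were Ppp1r3c, a glycogen-targeting phosphatase subunit, at -1.68, the pyruvate dehydrogenase kinases Pdk3 at -0.91 and Pdk1 at -0.57, and Aldoc, an aldolase, at -0.89. Called genes of this list thus lay in both directions, as in the whole test, where 25.7% of tested genes were higher and 24.8% lower. Several glycolytic genes have processed pseudogenes that can share reads, which leaves their counts uncertain.

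The other canonical hypoxia targets were 35 genes, of which 34 were tested, and 14 rose and 9 fell, 67.6% called with a median log2 fold change of 0.21. Hmox1, heme oxygenase, rose with a log2 value of 3.62, with 387 ± 69.9 CPM in LPS kidneys against 31.6 ± 3.19 CPM in Control kidneys, as did Edn1, the vasoconstrictor endothelin, at 2.59, and Angptl4, a lipoprotein lipase inhibitor, at 2.53. These genes are also known to respond to cytokines, oxidants or fatty acids. Of the genes that fell most, the carbonic anhydrases Car9 and Car12 had log2 values of -3.38 and -1.53, the mitochondrial adenylate kinase Ak4 had -2.95 with 90.0 ± 10.4 CPM in LPS kidneys against 694 ± 13.9 CPM in Control kidneys, and the chemokine Cxcl12 had -1.77. Vegfa, the vessel growth factor, was added after its values were seen: it fell, at 106, 109 and 101 CPM in LPS kidneys against 161, 159 and 177 CPM in Control kidneys, a log2 value of -0.65 ± 0.080 (edgeR, adjusted p = 0.000172). Epo, the classical Epas1 target of the kidney, did not pass the filter, with 9, 0 and 0 counts in LPS and 2, 2 and 0 counts in Control kidneys, too few to compare.

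The adrenomedullin list of 9 genes holds its receptor parts, related peptides and clearance genes. None rose and 3 fell (33.3% called), with a median log2 fold change of -0.37, but 1 gene was called higher without LPS replicate 1 and 1 without LPS replicate 3. Adm2, which encodes a related peptide and was named after its values were seen, had a log2 value of -0.93 and did not pass (edgeR, adjusted p = 0.0848), but was called lower without LPS replicate 1 (-1.47, adjusted p = 0.0104). Mme, the peptidase neprilysin, fell with a log2 value of -1.49, at 99.4 CPM in LPS kidneys against 279 CPM in Control kidneys. Ackr3, a scavenging receptor, fell with -0.90, but not past the threshold without Control replicate 2 (-0.75, edgeR, adjusted p = 0.0534). Its groups overlapped, at 35.4, 35.2 and 42.6 CPM in LPS kidneys against 85.8, 83.8 and 41.2 CPM in Control kidneys. Ramp3, a receptor subunit, fell with -0.64, at 9.80 CPM in LPS kidneys against 15.3 CPM in Control kidneys. The receptor core Calcrl had 22.9 ± 5.57 CPM in LPS kidneys against 21.5 ± 5.33 CPM in Control kidneys, and Ramp2 had 13.8 ± 2.31 CPM in LPS kidneys against 11.6 ± 0.277 CPM in Control kidneys. Neither passed the test (edgeR, adjusted p = 0.729 and 0.170). Without LPS replicate 1, however, Ramp2 was called higher (0.37, edgeR, adjusted p = 0.0337). Ramp1, another receptor subunit, was named after its values were seen. It had 38, 166 and 8 counts in LPS and 31, 13 and 31 counts in Control kidneys. Its log2 value of 1.38 did not pass (edgeR, adjusted p = 0.207) except without LPS replicate 3 (1.90, edgeR, adjusted p = 0.0401). That rise rested on LPS replicate 2, the library with the high seminal vesicle markers. Ramp1 had 4.99 CPM there, against 1.17 and 0.259 CPM in LPS replicates 1 and 3 and 0.423 to 1.04 CPM in Control kidneys.

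Of 10 mitophagy receptors and partners, 1 rose and 3 fell, with 40% called and a median log2 fold change of 0.00. Gabarapl1, an autophagosome protein bound by the receptors, fell with a log2 value of -1.16, at 415 ± 91.4 CPM in LPS kidneys against 930 ± 72.5 CPM in Control kidneys. The receptors Bnip3l, the closest relative of Bnip3, and Fundc1 fell with -0.51 ± 0.074 and -0.29 ± 0.071 (SE). Bcl2l13 rose with 0.23 ± 0.082, a call that ended under DESeq2 (adjusted p = 0.0519) and in the fits without LPS replicate 1 (0.16), LPS replicate 2 (0.28), Control replicate 1 (0.22), Control replicate 2 (0.25) or Control replicate 3 (0.23). The intervals of Bnip3 and Bnip3l, -0.37 to 0.08 and -0.68 to -0.34, overlap, and a difference between these genes was not tested.

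Of 14 lipid droplet genes, 8 rose, none fell and 6 did not pass (57.1% called), with a median log2 fold change of 0.51. Plin2, the droplet coat protein, rose 18.1-fold, with 1372, 1946 and 2642 CPM in LPS kidneys against 106, 113 and 110 CPM in Control kidneys, a log2 value of 4.18 ± 0.22 (SE). The coat proteins Plin4 and Plin5 rose by 1.53 ± 0.41 and 1.36 ± 0.14 (SE), and Mgll, the monoglyceride lipase, by 1.08 on the log2 scale. Plin4 varied widely among Control kidneys, at 6.79, 17.6 and 30.3 CPM in replicates 1, 2 and 3. Pnpla2, the lipase that the Hilpda protein inhibits, had 279, 209 and 199 CPM in LPS kidneys against 109, 174 and 198 CPM in Control kidneys and did not pass the test (edgeR, adjusted p = 0.0711), although DESeq2 gave an adjusted p of 0.0182. G0s2, another inhibitor of that lipase, rose with a log2 value of 0.52 ± 0.093. Pnpla2 and G0s2 were named after their values were seen. LPS replicate 3 was the highest library for Plin2 and LPS replicate 1 for Hilpda, so the order of the LPS libraries differed between these genes.

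On log2(FPKM + 1), which understates changes of low genes, the log2 values of Hif3a (0.48), Hk2 (0.83), Slc16a3 (0.70), Ppp1r3c (-0.56), Car9 (-2.08) and Edn1 (1.94) were smaller by over 1.5 times on the fold scale, with every one of these 6 still past the threshold. Of the pathway genes named above, Cited2, Siah2, Ackr3 and Bcl2l13 lost their calls on that scale (limma, adjusted p = 0.0583, 0.0739, 0.0954 and 0.0824). Calls for other listed genes, not named above, also ended there. The call for Elob ended on log2(FPKM + 0.1) (limma, adjusted p = 0.0524). Without the filter on low counts Cited2 did not pass either (edgeR, adjusted p = 0.0583).

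The genes whose log2 CPM followed 4 of the genes most closely were sought among 9711 genes with a mean of at least 10 CPM. For Hif1a they were Rhou, Pold1 and Cad, with Pearson r of 0.998, 0.997 and 0.997 over the 6 libraries. For Adm they were Specc1, Rab32 and Psmd11, with r of 0.999 for each. For Epas1 they were Gabpb2 (0.974), Atp2b4 (0.971) and Zfp451 (0.956), and for Egln3 they were Nck1 (0.976), Pdgfrb (0.975) and Mpzl1 (0.973). The genes nearest to Hif1a and Adm were all called higher, and those nearest to Epas1 and Egln3 did not pass the test. Picking genes by likeness over the same libraries largely sets these outcomes in advance. All r values rest on the same 6 libraries in 2 groups and are descriptions.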

How the data were processed

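Bulk RNA sequencing was made from whole kidney, using a VAHTS Universal V6 kit on TRIzol-extracted total RNA, per the labels' protocols. For every library the authors deposited whole-number read counts and FPKM values, both listed by gene symbol. The submitters' processing notes name R 3.2.0, DESeq2, SAMtools, HTSeq and HISAT2 without saying what each did. Build, annotation and strandedness were not given in the sources used here. The deposited FPKM equalled the count divided by a whole-number length and the library total in all 97605 values above 0 (relative tolerance 1e-05).

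Groups came from the sample titles. Counts were tested with edgeR 4.0.16 (R 4.3.3): filterByExpr at its defaults (minimum count 10, minimum total 15) removed 3461 genes, TMM factors scaled the libraries, and the two-sided quasi-likelihood test with Benjamini-Hochberg adjustment over 14219 genes was called at 0.05. SE is the size of the log2 fold change over the root of its F statistic. CPM values carry the TMM scaling, and levels are mean ± SD over 3 libraries. The design text gives 3 mice per group, and replicate pairs of counts differed beyond sampling noise (chi-square of at least 11.6 per degree of freedom). Ratios and sums were tested by exact permutation of the libraries, and Poisson intervals were computed with scipy 1.17.1. The fit was tested on simulated data.

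The 9 genes, the pathway lists and the marker lists were chosen with earlier results of these data known, and no list was tested. Per pathway list, up to 4 of the largest called changes in each direction were named, of which 1 is not reported here. Alternatives were scaling by RLE or by library sizes alone, testing without a filter or above a mean of 1 CPM, limma-voom (limma 3.58.1), DESeq2 1.42.0, limma on FPKM values after adding 0.1 or 1 and taking log2, also above a mean of 1 FPKM, a replicate block, and leaving out each library. Promoter windows came from RefSeq on GRCm38.p6, and overlaps of exons from GENCODE M21. Protein sequences were not used here.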

Additional observations from a re-analysis of the deposited data

How the results depend on the processing

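Hif1a, Egln1, Adm and Hilpda kept their direction and stayed past the threshold under all 16 alternatives, with log2 fold changes of 0.47 to 0.56, -0.59 to -0.55, 1.05 to 1.29 and 1.40 to 2.03. Of 144 values of the 9 genes under alternatives, 131 kept direction and side of the threshold, 5 lost the call, all for Vhl, and 8 changed sign, all for Epas1 and Egln2, which never passed. Leaving out 1 library gave Vhl -0.32 to -0.22, Epas1 -0.065 to 0.13 and Egln2 -0.070 to 0.037. Epas1 was -0.00795 on log2(FPKM + 1), with or without the FPKM minimum, and -0.00871 on log2(FPKM + 0.1). Calls numbered 4 or 5 of the 9 genes, 50 to 62 pathway genes (59 of 109 in the main test, with other numbers tested under some filters) and 6087 to 7214 of all tested genes. With the replicate number as a replicate block, Vhl was -0.27 and no longer passed (adjusted p = 0.0599), and 4 of the 9 genes, 56 pathway genes and 6745 genes in all were called. Deviations of same-numbered libraries from their group means had r of 0.0356, -0.0663 and -0.00832. With 3 libraries per group, these values cannot show whether the numbers pair the mice, and the labels do not say. The cause of these changes was not tested. The 3 libraries per group limit the precision.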
